A study of Mus musculus with 4 samples.

Results

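The binding of transketolase, known as a metabolic enzyme that interconverts sugar phosphates, was mapped on chromatin by ChIP-seq (immunoprecipitation of crosslinked protein and DNA followed by sequencing) in whole retina of Tet-opsin-VEGFA mice. The members described here are the peaks that the authors assigned to a microRNA gene, that is, all peaks with an annotation line whose gene symbol starts with Mir and a digit or with Mirlet. There were 881 such peaks among 30791 in the induced list (2.86%, 95% Wilson interval 2.68 to 3.05%) and 522 among 18267 in the control list (2.86%, 2.63 to 3.11%), 1403 of 49058 in both lists together. The induced group carried the transgene and was induced. The control group carried the same transgene and was not induced. The transgene is named for an opsin promoter and for VEGFA, so the controls also hold the construct, and inducing agent, age and sex of the animals are not given in the sources used here. For each condition 2 retinas were taken, according to the series text, and there was 1 ChIP and 1 input library, so the study had 4 libraries. Whether the retinas of a condition were pooled is not given in the sources used here. With 1 ChIP library per condition there was no replicate error to set a difference against, so no test was made between the conditions and the intervals below cover counting error only. The retina was not separated into cell types, and peaks measure DNA, so the tissue label could not be checked against marker transcripts and no peak can be placed in a cell type.

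MicroRNAs are short RNAs cut from a hairpin within a longer transcript. Bases 2 to 8 of the mature strand, the seed, pair with messenger RNAs and lower their output, so microRNAs that share a seed share many targets. Many microRNA hairpins lie inside the introns or exons of protein-coding host genes and are made from the host's transcript, and others have their own transcription unit far upstream. The start site listed for a microRNA is therefore often the first base of the hairpin and not a promoter of transcription. In retina, the miR-183/96/182 cluster, miR-204, miR-124 and miR-9 are known for their abundance, and the miR-17/92 cluster, miR-126 and miR-210 are known from vessel growth and hypoxia.

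Of the 31 RefSeq microRNA genes that lay under a peak in either list, 28 had a mature sequence in the RefSeq table of GRCm38.p6. The mature strands below belong to the microRNAs on which the results turn, and the seed is in capitals. The first lines are microRNAs whose gene lay under a peak of the induced list.
miR-682 (chr13:75645119-75645139, plus strand): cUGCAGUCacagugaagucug
miR-3064-5p (chr11:106782736-106782757, minus strand): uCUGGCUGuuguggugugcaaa
miR-6935-3p (chr11:120347350-120347369, minus strand): uGUUCUUUgucuuuccacag
miR-686 (chr14:54616746-54616767, minus strand): aUUGCUUCccagacggugaaga
miR-677-5p (chr10:128085291-128085312, plus strand): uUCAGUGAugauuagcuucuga
miR-671-3p (chr5:24592171-24592191, plus strand): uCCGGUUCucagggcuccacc
The seeds of these 6 strands differ from each other. The next lines are microRNAs under, or assigned to, a promoter-class peak of the control list, with members that share a seed kept together.
miR-17-5p (chr14:115043684-115043706, plus strand): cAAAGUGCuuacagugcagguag
miR-20a-5p (chr14:115044183-115044205, plus strand): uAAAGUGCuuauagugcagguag
miR-18a-5p (chr14:115043867-115043889, plus strand): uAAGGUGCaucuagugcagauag
miR-19a-3p (chr14:115044048-115044070, plus strand): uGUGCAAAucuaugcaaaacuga
miR-19b-3p (chr14:115044358-115044380, plus strand): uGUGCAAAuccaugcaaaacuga
miR-15b-5p (chr3:69009775-69009796, plus strand): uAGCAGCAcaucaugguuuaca
miR-16-5p (chr3:69009918-69009939, plus strand): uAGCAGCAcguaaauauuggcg
miR-692 (chr4:125504805-125504825, plus strand): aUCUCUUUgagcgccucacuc
These seed pairs sat within single clusters, so that miR-17-5p with miR-20a-5p, and miR-19a-3p with miR-19b-3p, were assigned to 1 and the same peak, and miR-15b-5p with miR-16-5p to another. The same mature miR-692 is annotated at copies on chromosomes 4 and 13, and both of these lay under a control peak. A further symbol, Mir692-1 on chromosome 17, had a control peak of 21 tags at 6.35-fold. That peak lay 21837 bp after its start and not over the gene.

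Most microRNA-assigned peaks were classed as intergenic, and few as intronic. In the authors' annotation, where a promoter peak has its centre within 2 kb of a listed start site and an upstream peak lies 2 to 20 kb before it, 592 of the 881 induced members were intergenic, 162 upstream, 89 promoter and 38 intron. In the control list 377 of the 522 members were intergenic, 86 upstream, 44 promoter and 15 intron, and neither list had an exon member. The intergenic share was 67.2% of members (64.0 to 70.2%) and 45.2% of the other peaks (44.7 to 45.8%) in the induced list. In the control list it was 72.2% of members (68.2 to 75.9%) and 40.6% of the other peaks (39.9 to 41.4%). Intron peaks made up 4.31% of induced members and 31.6% of the other induced peaks, and 2.87% of control members and 35.2% of the other control peaks. A microRNA gene of the RefSeq table is 39 to 147 bp long and leaves no room for an intron, and 31 of the 38 induced and 12 of the 15 control intron members were placed in spans that the authors listed for a microRNA away from its RefSeq position. The remaining intron members lay in host transcripts.

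**Figure D1:**
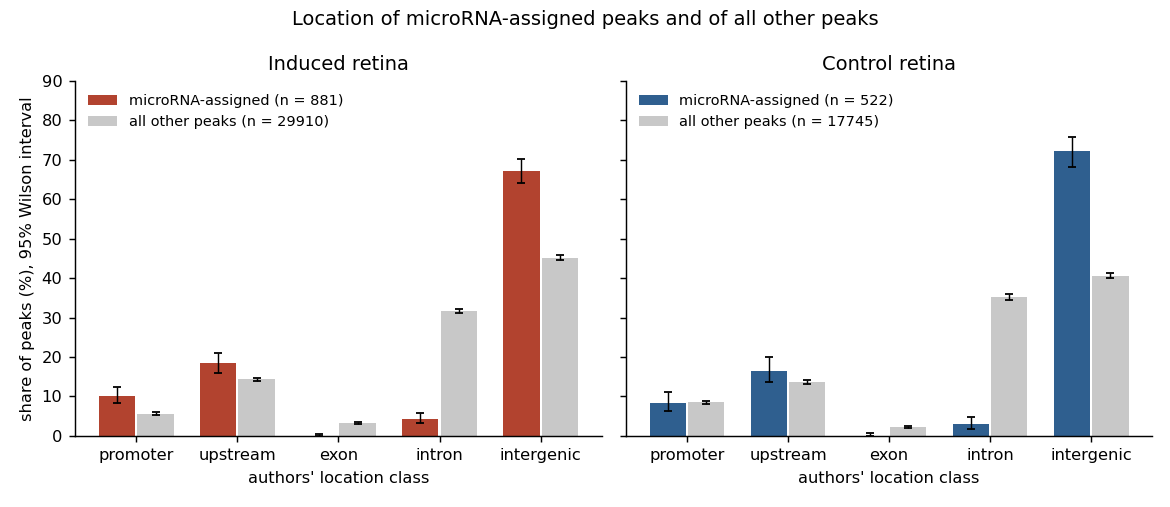
Share of peaks (%, y axis) in each of the authors' location classes (x axis) for microRNA-assigned peaks (coloured) and all other peaks of the same list (grey), with the induced retina on the left and 95% Wilson intervals as error bars. Members exceed the other peaks in the intergenic class, 67.2% and 45.2% in the induced list and 72.2% and 40.6% in the control list, and fall below them in the intron class.

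The promoter class held 10.1% of induced members (8.28 to 12.3%), against 5.65% of the other induced peaks (5.39 to 5.91%) and 5.77% of all induced peaks, so the 2 intervals did not meet. In the control list the promoter share was 8.43% of members (6.34 to 11.1%) and 8.47% of the other peaks (8.07 to 8.89%), equal to the 8.47% of all control peaks. The class is defined by distance, and 60 of the 89 induced and 22 of the 44 control promoter members lay within 1 kb of the listed site. The nearest listed start site of any assigned gene was at a median of 32445 bp from induced members and 47499 bp from the other induced peaks. For control members the median was 36740.5 bp, and for the other control peaks 38836 bp. Members more than 500 kb from a start site numbered 46 in the induced list (5.22%) and 29 in the control list (5.56%), where 7.48% of the other induced and 6.71% of the other control peaks lay so far away.

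Position inside a host gene was read from the RefSeq gene spans, whatever class the authors gave. A protein-coding gene span held 304 of 881 induced members (34.5%, 31.4 to 37.7%) and 46.5% of the other induced peaks (45.9 to 47.0%). It held 197 of 522 control members (37.7%, 33.7 to 42.0%) and 52.1% of the other control peaks (51.4 to 52.9%). Among intergenic-class peaks the order was the other way: 113 of 592 induced members (19.1%, 16.1 to 22.4%) and 8.34% of the other intergenic peaks of that list lay in a coding gene. For the control list these shares were 104 of 377 members (27.6%, 23.3 to 32.3%) and 12.5% of the others. Of the upstream members, 108 of 162 in the induced list (66.7%, 59.1 to 73.5%) and 49 of 86 in the control list (57.0%, 46.4 to 66.9%) lay in a coding gene, where 36.9% of the other induced and 37.1% of the other control upstream peaks did. The class depends on the assigned gene. A position inside a host gene is an intron peak if assigned to the host, but not if assigned to a microRNA too short for an intron. The shares within classes are thus partly set by the annotation and are no separate result.

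Members and the other peaks of their list had equal median strength. The authors' fold enrichment had a median of 8.59 in the induced members and 8.59 in the other induced peaks, and of 5.86 in the control members and 5.86 in the other control peaks. The median member held 11 ChIP tags in the induced list and 17 in the control list. The smallest tag count listed was 10 in the induced and 14 in the control list, and 319 of the 881 induced members held 10 tags. Folds fell on few values, with 145 induced members at 7.52, 135 at 8.59 and 127 at 9.66, so equal medians carry little precision. The authors' false discovery rate reached 0.64% in induced members and 6.08% in control members, with medians of 0.25% and 3.985%. Each list was made from a ChIP library and the input of its own condition, per the sheet names, but the background behind the fold is not given in the sources used here, and tag floors and false discovery rates differ. Folds of both lists are therefore given side by side and not compared in size.

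A tail of strong peaks was found in the induced list. At 20-fold or more stood 39 of the 881 induced members (4.43%, 3.26 to 5.99%), where 3.48% of all induced peaks reached that fold. No control member reached 20-fold, and the highest fold among the other 17745 control peaks was 27.86. At 10-fold or more stood 4 of the 522 control members (0.766%, 0.298 to 1.95%), where 0.438% of all control peaks did. The members just above the 20-fold line had 21.48-fold (Mir671) and 22.55-fold (Mir340), and those just under it 19.33-fold (Mir5125) and 19.9-fold (Mir148a). Annotated pseudogenes, which are copies of genes that do not give the usual product, lay under 22 of the 39 strong induced members (56.4%, 41.0 to 70.7%) and under 63.2% of the other induced peaks of that strength (60.3 to 66.1%). Over all folds, 40 induced members (4.54%) and 9 control members (1.72%) overlapped a pseudogene, near the 4.86% of all induced peaks and the 1.61% of all control peaks. Of the other 17 strong members, 16 lay in a coding gene span and 1 in neither.

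**Figure D2:**
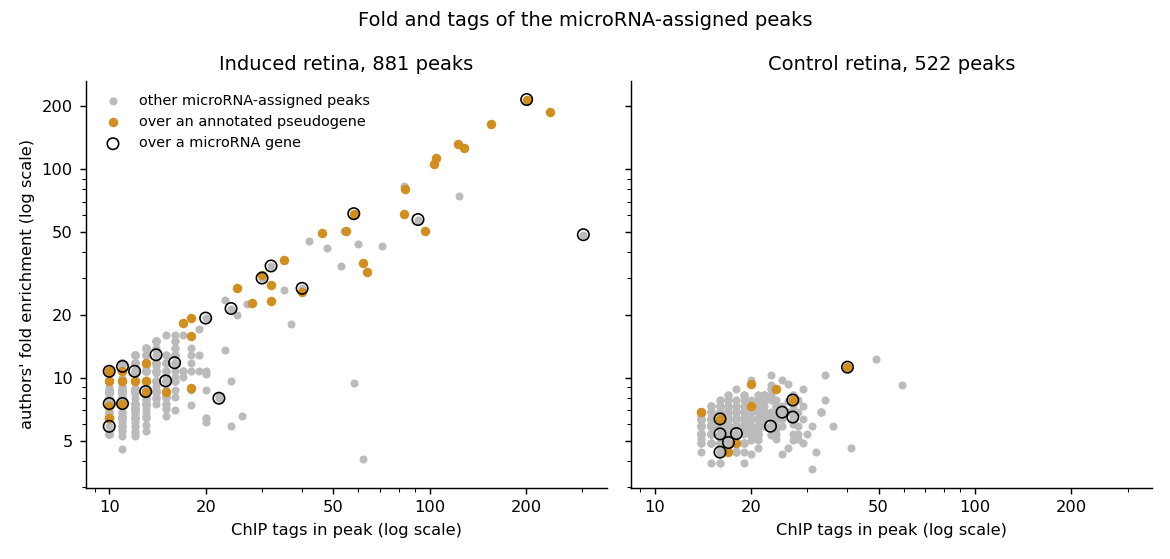
ChIP tags (x axis, log scale) and the authors' fold enrichment (y axis, log scale) of each microRNA-assigned peak, induced retina left and control retina right, with pseudogene overlaps in orange and microRNA gene overlaps circled. The induced panel has a tail that reaches 215.83-fold, and the control members stop at 12.29-fold. Folds of the lists are not compared in size.

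The strongest members lay over pseudogenes of ribosomal proteins and of unnamed genes. At Mir682 on chromosome 13 the induced list had 201 tags at 215.83-fold, with the pseudogene Gm4149 under the peak. The Mir5098 peak on chromosome 8 held 237 tags at 187.78-fold over Rps18-ps3, a pseudogene of a small-subunit ribosomal protein gene. A Mir684-1 peak on chromosome 11 held 155 tags at 164.29-fold over Rps12-ps19. These peaks carry more than 100 tags each and stand far outside the median of 11 tags. On the X chromosome, the peaks assigned to Mir384 (132.08-fold, 123 tags, Rpl30-ps9), to the Mir743b, Mir743 and Mir742 cluster (126.71-fold, 128 tags, Gm14681) and to Mir1906-1 and Mir1906-2 (112.75-fold, 105 tags, Gm8864) followed. Of these, only the Mir743b peak was of the promoter class, with its centre 1311 bp before the listed start, while the Mir384 peak lay 65541 bp after it. Mir6342 had 103 tags at 106.3-fold over Gm5525, 63674 bp from its start site. The control list had no member over 12.29-fold, and none of the positions in this paragraph overlapped a control peak, where 1.63% of all induced peaks did.

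The hairpin of Mir682, with its mature strand in capitals, lay wholly under the strongest peak and within the span of Gm4149.
Mir682 (chr13:75645046-75645141, plus strand): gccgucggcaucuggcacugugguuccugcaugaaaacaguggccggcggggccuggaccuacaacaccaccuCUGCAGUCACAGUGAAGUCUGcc
The hairpin of Mir692-2 lay wholly under a control peak and over Ftl2-ps, a pseudogene named for the ferritin light chain.
Mir692-2 (chr4:125504749-125504857, plus strand): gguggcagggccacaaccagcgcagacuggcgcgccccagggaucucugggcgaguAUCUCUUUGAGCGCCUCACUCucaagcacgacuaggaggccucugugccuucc
Gm4149 runs from 75644865 to 75645228 on chromosome 13 and Ftl2-ps from 125504080 to 125505018 on chromosome 4 in the RefSeq gene table, so that each hairpin lies wholly within the span of the pseudogene. How reads that match several such copies were placed is not given in the sources used here.

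Every peak that overlapped a RefSeq microRNA gene by 1 bp or more was a member, in both lists. The assignment by distance largely sets this, since these genes are at most 147 bp long and the promoter class reaches 2 kb. Peaks over a microRNA gene were 20 of the 881 induced and 10 of the 522 control members, or 0.065% of all induced and 0.0547% of all control peaks. The induced peaks lay over 20 microRNA genes and the control peaks over 11, and no microRNA gene lay under a peak in both lists, where 1.63% of all induced and 2.73% of all control peaks overlapped a peak of the other list. In the induced list 13 of the 20 genes were covered whole and 17 of the 20 peaks lay in a coding gene span. Of the 11 genes under control peaks, 9 were covered whole, and 7 of the 10 peaks lay in a coding gene span. Fold at these peaks ran from 5.85 to 215.83 in the induced list, with a median of 12.35 over the genes, and from 4.4 to 11.24 in the control list, with a median of 5.86.

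After Mir682, the induced peak over a microRNA gene of highest fold was that of Mir684-1, with 58 tags at 61.21-fold over the pseudogene Gm13690 and within Dusp19, a phosphatase gene, and it covered 83 of the 86 bp of the microRNA gene. The peaks that followed were in host genes that most cells express. Mir6935 lies in Actg1, which codes for gamma-actin, and its peak held 92 tags at 57.37-fold with the centre 54 bp before the microRNA start. Mir3064 lies in Ddx5, an RNA helicase that works with the Drosha complex that cuts microRNA hairpins. The Mir3064 peak, of 302 tags at 48.52-fold, had the highest tag count of all members and was also the longest, at 2531 bp. Mir686 lies in Psmb5, a catalytic subunit of the proteasome, and had 32 tags at 34.36-fold. Mir677 lies in Atp5b, the beta subunit of mitochondrial ATP synthase, and had 30 tags at 30.07-fold. All 4 peaks contained the whole microRNA gene. None of these 4 microRNA genes had a control peak over it, where 1.63% of all induced peaks overlapped a control peak. Away from the microRNA gene, the hosts Ddx5 and Atp5b each held a control peak, of 26 tags at 7.82-fold and of 25 tags at 6.84-fold. Lower in the list came Mir6951 in Azin1, a regulator of polyamine synthesis (26.84-fold, 40 tags), Mir671 in Chpf2, a chondroitin-polymerising factor (21.48-fold, 24 tags), and Mir5125 in Srrm2, a splicing protein (19.33-fold, 20 tags). The remaining induced peaks of this kind had 10 to 22 tags and 5.85- to 12.89-fold, among them Mir7654 in Arglu1, Mir7678 in Slpi, Mir6418 in Gnb2, Mir6993 in the fatty acid desaturase gene Fads1, Mir6941 in the Notch ligand gene Jag2 and Mir6946 in Sec24c, a coat protein of vesicles that leave the endoplasmic reticulum. Mir1928, Mir1893, Mir7668, Mir882 and Mir6907 complete the 20, with 11.81-, 11.34-, 7.98-, 7.52- and 5.85-fold.

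The hairpins of Mir6935 and Mir686 are printed with the mature strand in capitals. Whether they lie in an exon or an intron of the host was not read.
Mir6935 (chr11:120347350-120347413, minus strand): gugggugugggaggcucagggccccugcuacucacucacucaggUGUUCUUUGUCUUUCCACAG
Mir686 (chr14:54616677-54616785, minus strand): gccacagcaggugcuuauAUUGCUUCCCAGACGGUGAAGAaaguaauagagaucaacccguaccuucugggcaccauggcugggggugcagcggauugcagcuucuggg
The Mir6935 hairpin begins with GU and ends with AG, the letters at the ends of most introns, and hairpins that are whole short introns (mirtrons) are cut out by splicing. Of the 27 hairpins under a peak for which a sequence was read, 9 ended in AG (33.3%), and of all 1005 hairpins read from the table, 238 did (23.7%). Only Mir6935 among the 27 had both ends (3.70%), against 30 of all 1005 (2.99%). The GC content of the 27 had a median of 52.8%, and that of all 1005 a median of 51.7%. The search read the hairpin strand only.

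In the control list, the peaks over microRNA genes of highest fold were at the copies of miR-692 on chromosomes 13 and 4. Mir692-3 on chromosome 13 had 40 tags at 11.24-fold over Ftl1-ps1, and Mir692-2 on chromosome 4 had 27 tags at 7.82-fold over Ftl2-ps. Ferritin light chain is a subunit of the iron store of the cell. Mir7011 in Sema4a, a semaphorin, had 25 tags at 6.84-fold, Mir721 in Cux1, a homeobox factor, had 27 tags at 6.48-fold, and Mir3057 in Apba3 had 23 tags at 5.86-fold. Mir6911 (6.35-fold), Mir1934 (5.38-fold) and Mir568 (4.4-fold) had 16 tags each. The peak over Mir15b, in the condensin gene Smc4, held 18 tags at 5.4-fold and was also assigned to Mir16-2. The peak over Mir17 and Mir18 held 17 tags at 4.89-fold, with a false discovery rate of 5.81%. That one peak was counted by the authors for Mir17, Mir18, Mir19a, Mir19b-1, Mir20a, Mir92-1 and the host transcript Mir17hg, and its 17 tags equal the median of the control members. In the induced list the nearest peak assigned to Mir17 lay 24739 bp before it, with 10 tags at 8.59-fold, which is the smallest tag count of that list.

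**Figure D3:**
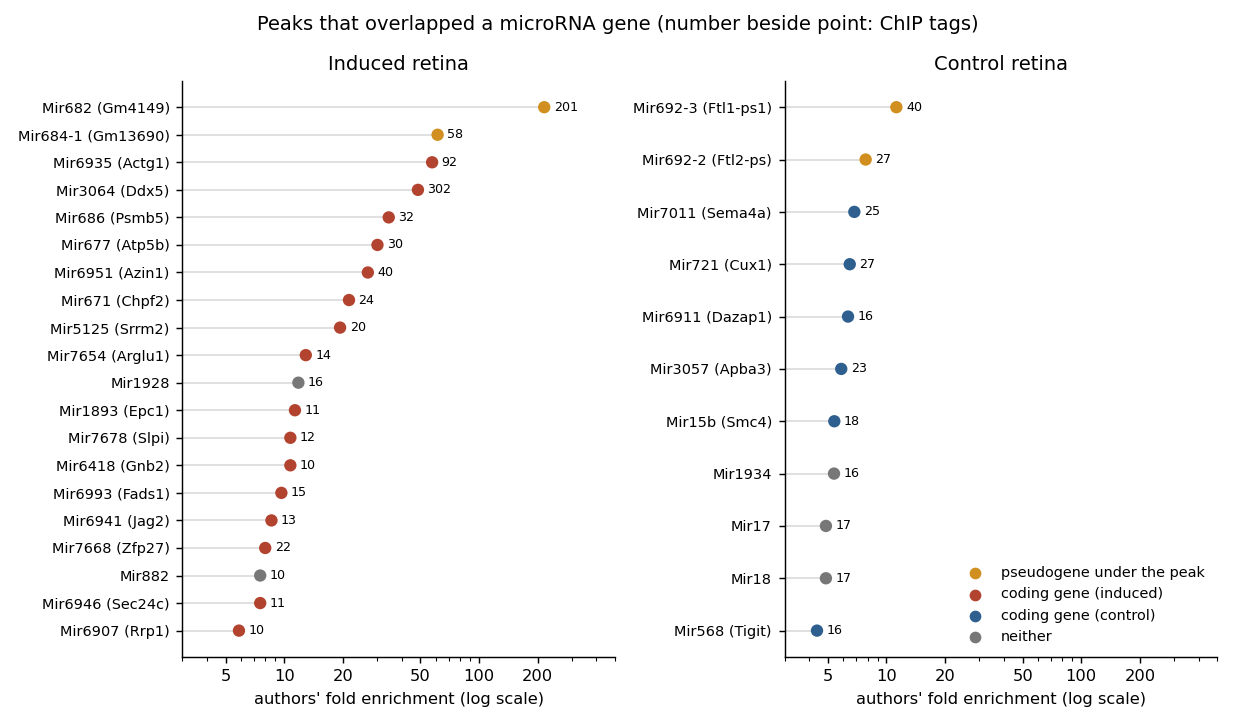
The authors' fold enrichment (x axis, log scale) of each peak that overlapped a microRNA gene, with the induced retina left and the control retina right, the gene in brackets naming the pseudogene (orange) or coding gene under the peak, and the ChIP tags beside each point. Induced peaks span 5.85- to 215.83-fold and control peaks 4.4- to 11.24-fold, and no microRNA appears in both panels.

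Strong peaks also lay in host or neighbouring genes without touching the hairpin. Mir3061 had an induced peak of 83 tags at 82.7-fold, 4534 bp before its start and within Ppp2ca, the catalytic subunit of protein phosphatase PP2A. Mir7669 had 54 tags at 50.47-fold within Ubap2l, and Mir6417 had 60 tags at 43.87-fold within the splicing helicase gene Dhx15. Ctnnb1, the gene of beta-catenin, held 4 induced peaks assigned to Mir7090, with 42 tags at 45.1-fold, 53 tags at 34.36-fold, 14 tags at 13.96-fold and 16 tags at 9.69-fold. No control peak lay in Ctnnb1, where only 1.63% of all induced peaks overlapped a control peak. Hnrnpk, an RNA-binding protein gene that hosts Mir7-1, held 2 induced peaks, with 71 tags at 42.95-fold and 37 tags at 18.04-fold. The control list had 2 peaks in Hnrnpk (22 tags at 6.56-fold and 18 tags at 4.4-fold), both assigned to other genes. Ptges3, a co-chaperone gene next to Atp5b, held an induced peak of 48 tags at 41.88-fold that was assigned to Mir677. Pdia4, which codes for a protein disulfide isomerase of the endoplasmic reticulum, held 3 induced peaks assigned to Mir704, with 35 tags at 26.32-fold, 23 tags at 23.62-fold and 14 tags at 13.65-fold. Pdia4 held 1 such control peak, with 20 tags at 5.38-fold.

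**Figure D4:**
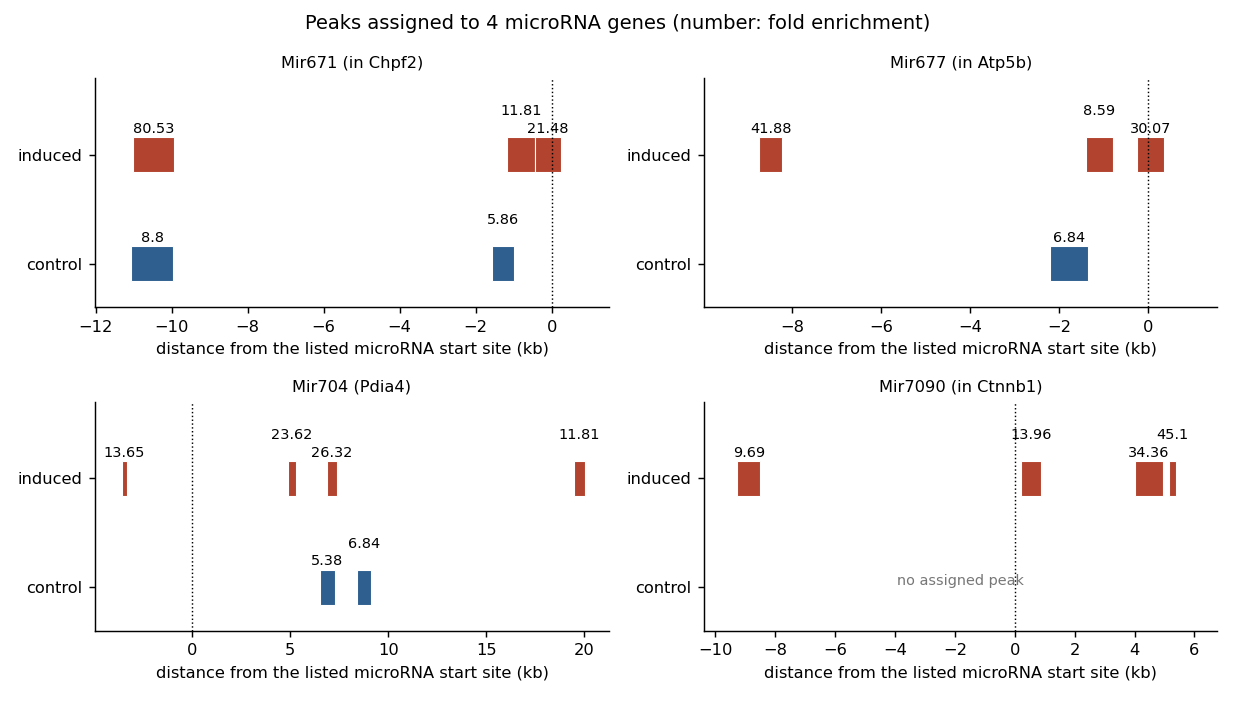
Peaks assigned to Mir671, Mir677, Mir704 and Mir7090, drawn to scale by distance from the listed microRNA start site (x axis, kb, dotted line at the start site), with induced peaks in the upper row of each map, control peaks in the lower row and the fold enrichment above each peak. Mir671 has an 80.53-fold induced peak and an 8.8-fold control peak at the same upstream position. Mir7090 has induced peaks alone, where 1.63% of all induced peaks overlap a control peak.

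Few member positions were shared by the lists. Of the 881 induced members, 17 overlapped a control peak by at least 1 bp (1.93%, 1.21 to 3.07%), beside 1.63% of all induced peaks. Of the 522 control members, 19 overlapped an induced peak (3.64%, 2.34 to 5.61%), beside 2.73% of all control peaks. Both shares had intervals that included the share of the whole list. The 19 pairs had 17 in which both peaks were members, and 2 control members, of Mir301 in Ska2 and of Mir592 in Grm8, met an induced peak assigned to other genes. Fold in the pairs ran from 6.44 to 82.7 in the induced list and from 4.3 to 12.29 in the control list.

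The shared position of highest fold was the one near Mir3061 in Ppp2ca, with 82.7-fold and 83 tags in the induced list and 5.38-fold and 17 tags in the control list. The position upstream of Mir671, over the pseudogene Gm10221, had 80.53-fold and 84 tags in the induced list and 8.8-fold and 24 tags in the control list, and its peaks overlapped by 1070 bp, the longest overlap. The Mir6356 position on chromosome 18 had 74.53-fold and 124 tags in the induced list and 12.29-fold and 49 tags in the control list, where it was the member of highest fold. These 3 and the positions of Mir704 in Pdia4 (26.32-fold induced, 5.38-fold control) and Mir340 in Rnf130 (22.55-fold induced, 4.3-fold control) were the 5 pairs at 20-fold or more in the induced list. At the Mir466d position within Camk1d the folds were 9.45 in the induced and 9.26 in the control list, with 58 and 59 tags. At the other positions the induced peaks held 10 to 18 tags, close to the floor of that list. They belonged to Mir671, Mir301, Mir326, Mir3471-1, Mir677, Mir1945, Mir2136, Mir1952, Mir568, Mir365-2, Mir1187, Mir12204 and Mir592.

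**Figure D5:**
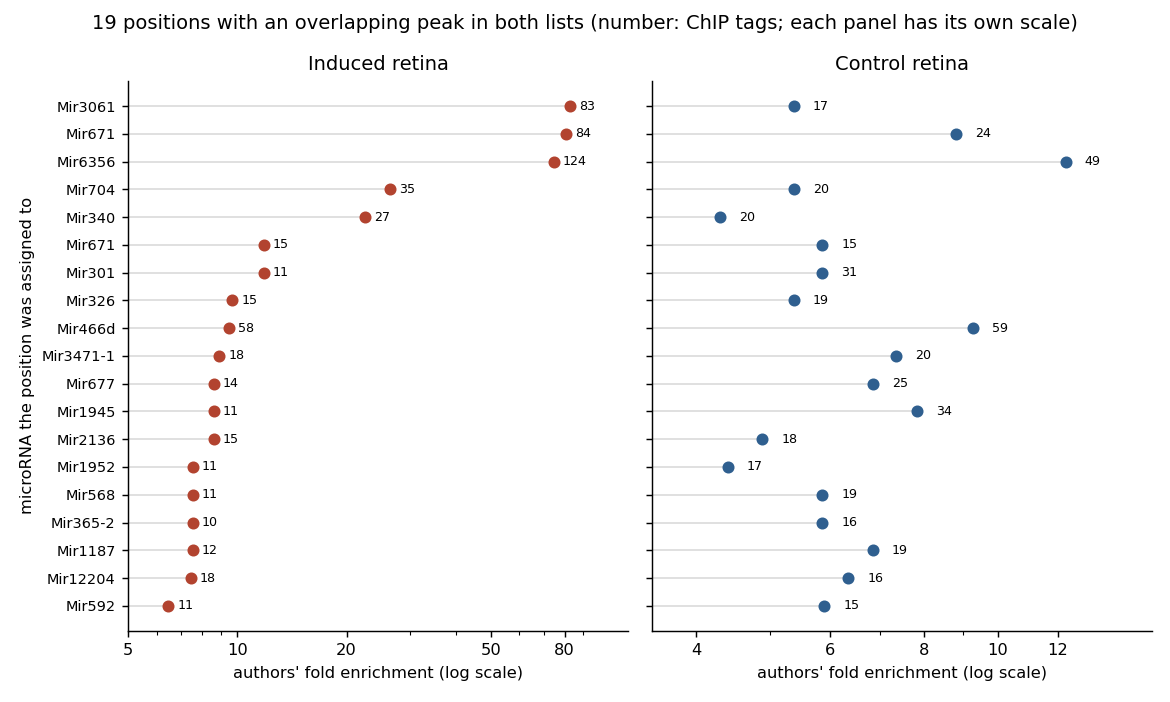
The authors' fold enrichment (x axis, log scale, with a separate scale for each list) at each of the 19 positions where a microRNA-assigned peak overlapped a peak of the other list (rows, named by microRNA), with the induced retina left, the control retina right and the ChIP tags beside each point. The top 5 rows have induced folds of 22.55 to 82.7, and the highest control fold, 12.29, is at Mir6356.

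By gene, 414 microRNA symbols had a member peak in the induced list and 296 in the control list, 527 in either and 183 in both (44.2% of the induced and 61.8% of the control symbols). Symbols are not separate counts, since 31 induced and 20 control members were assigned several microRNA symbols. The Mir669a and Mir669p symbols all rested on the same 4 induced and 2 control peaks, away from their RefSeq genes. Shares of all genes with a peak, or a promoter-class peak, in both lists were not taken. Of the 1228 RefSeq microRNA genes, 33.3% were assigned an induced peak and 23.7% a control peak, and 6.92% and 3.99% were assigned a promoter-class peak. A promoter-class peak was listed for 85 symbols in the induced list and 50 in the control list, and 8 symbols had one in both: Mir340, Mir466d, Mir671, Mir677, Mir684-1, Mir2861, Mir3960 and Mir7654. At Mir340, Mir466d, Mir671 and Mir677 promoter peaks of the lists overlapped. At Mir7654, Mir2861, Mir3960 and Mir684-1 they did not. Mir2861 and Mir3960 lie side by side near Cdk9, a kinase of transcription elongation, and shared 1 peak in each list, of 11 tags at 8.77-fold on one side in the induced list and of 30 tags at 5.38-fold on the other side, in Cdk9, in the control list. Among the microRNAs with a promoter-class peak, the mature strands of 73 of the 85 induced and 40 of the 50 control symbols were among the sequences read. Seeds shared by different genes of the induced set were those of miR-181a-5p with miR-181b-5p, let-7d-5p with let-7k, miR-449a-5p with miR-449c-5p, miR-743a-3p with miR-743b-3p, miR-6993-5p with miR-7008-5p, miR-6899-3p with miR-7238-3p, and both strands of the 2 Mir3084 copies.
miR-340-5p (chr11:50069720-50069741, plus strand): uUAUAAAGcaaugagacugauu
This strand is printed since Mir340 is the symbol with overlapping promoter-class peaks of highest induced fold in a host gene, Rnf130.

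Several symbols collected peaks because the authors listed them at more than 1 place. Mir684-1 had 7 induced peaks at 6 listed start sites. The RefSeq gene is a single locus at chr2:80628705-80628790, where the induced peak of 58 tags at 61.21-fold lay over Gm13690. Its other strong peaks were the 164.29-fold peak on chromosome 11, a peak of 83 tags at 61.21-fold over Gm10241 on chromosome 16 and one of 64 tags at 32.21-fold over Smt3h2-ps3 on chromosome 10. Mir684-1 had 3 control peaks, of which 2 lay in Sumo2, the gene of a small ubiquitin-like modifier, with 27 tags at 5.38-fold and 26 tags at 4.63-fold. Mir5098, an 82 bp gene on chromosome 5 in RefSeq, was listed with a span of 203211 bp on chromosome 8, which took 5 induced and 6 control peaks. It was also listed with a span of 479430 bp on chromosome 2, which took 4 induced peaks, and with one of 146272 bp on chromosome 17, which took 2 control peaks. The Mir466, Mir467, Mir669 and Mir297 families, which RefSeq places in a cluster on chromosome 2 for most members, were also listed with spans of up to 451460 bp, mostly on other chromosomes. In all, 57 induced members (6.47%) and 28 control members (5.36%) had no assigned microRNA whose listed start lay at its RefSeq gene.

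A few isolated microRNAs took many weak peaks. Mir6238 was assigned 18 induced and 5 control peaks, from 450.37 kb before to 922.84 kb after its start in the induced list, with 10 to 20 tags and 5.54- to 13.96-fold. Mir6350 (15 induced and 4 control peaks) and Mir6370 (13 and 4) were likewise widely spread. None of the induced peaks of these 3 symbols lay in a coding gene. Mir592 had 5 induced peaks, none of them in a coding gene, and 18 control peaks, of which 14 lay in Grm8, a metabotropic glutamate receptor gene. Their folds were 6.44 to 10.74 in the induced list and 4.89 to 7.82 in the control list. These counts do not cover all peaks in Grm8, since the lists could assign the same position to different genes. At 1 position there, the control peak (15 tags, 5.9-fold) was assigned to Mir592. The overlapping induced peak (11 tags, 6.44-fold) was classed as intron and assigned to Grm8. Peaks assigned to 1 symbol share its surroundings and are not repeats of a measurement. In contrast, 220 of the 414 induced symbols and 169 of the 296 control symbols had exactly 1 peak. Host transcripts matched the same symbol rule for 6 names. Mir99ahg, the host of miR-99a, let-7c and miR-125b-2, had 5 induced peaks of 7.52- to 12.89-fold and 4 control peaks of 5.38- to 8.31-fold. Mir124-2hg had 4 induced peaks of 9.65- to 10.74-fold and 4 control peaks of 5.38- to 9.26-fold, all before its start site. Mir100hg, Mir124a-1hg, Mir9-3hg and Mir17hg had between 0 and 3 peaks in each list.

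The listed microRNAs known from retina had 23 peaks in the induced and 5 in the control list. None of these peaks was above 12.89-fold in the induced or 7.82-fold in the control list. Of 15 photoreceptor and retina-enriched genes, 4 had an induced peak and 3 a control peak (26.7% and 20%), beside 33.3% and 23.7% of all RefSeq microRNA genes. Mir183, Mir96, Mir182, Mir204, Mir211, Mir9-1, Mir9-2 and Mir9-3 had none in either list. This holds for the listed symbols only, since related symbols that are not on the list did have peaks. The host transcript Mir9-3hg had 1 induced peak of 10 tags at 5.37-fold, 5.55 kb after its start. The host transcripts Mir124-2hg and Mir124a-1hg had peaks in both lists. Mir9b-1 had a control peak of 28 tags at 5.09-fold. Mir9b-2 had an induced peak of 11 tags at 8.59-fold and a control peak of 20 tags at 6.35-fold. Mir124b had 4 control peaks of up to 8.8-fold and no induced peak. Mir181a-1, whose product is abundant in inner retina, had 12 induced peaks, 2 of them of the promoter class, with 10 tags at 10.74-fold and 13 tags at 9.75-fold. Its 3 control peaks lay 117.27 to 126.54 kb before the start, with 15 to 21 tags at 4.89- to 7.82-fold. Mir125b-1 had a promoter-class peak of 10 tags at 9.66-fold in the induced list, where 3 further peaks lay up to 196892 bp after its start, and 1 distant control peak of 14 tags at 6.84-fold. Mir125b-2 had 6 induced peaks of 6.44- to 9.66-fold and 1 control peak of 4.4-fold, all at least 78934 bp away. Mir124a-3 had 1 induced peak of 13 tags at 7.98-fold. The median fold over the peaks of the list was 9.66 in the induced and 6.35 in the control list, beside 8.59 and 5.86 over all members.

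The let-7 family, known for holding back proliferation, had peaks at 5 of its 12 genes in the induced list and at 2 in the control list (41.7% and 16.7%), beside 33.3% and 23.7% of all RefSeq microRNA genes. Mirlet7d had the only promoter-class peak, in the induced list, with 10 tags at 8.59-fold. Mirlet7a-1 had an induced peak of 15 tags at 9.66-fold, 10651 bp before its start, and a control peak of 17 tags at 4.89-fold, 3183 bp before it. Mirlet7c-1 had 3 induced peaks of 5.37- to 8.59-fold, Mirlet7i 2 induced and 2 control peaks, and Mir98 1 induced peak. Mir7k, which gives let-7k with the same seed as let-7d-5p and is not on the list, had a promoter-class induced peak of 10 tags at 6.44-fold. No let-7 peak exceeded 10.74-fold in the induced or 5.38-fold in the control list.

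Among 28 genes known from VEGF signalling, hypoxia and vessel growth, 7 had an induced peak and 9 a control peak (25% and 32.1%), beside 33.3% and 23.7% of all RefSeq microRNA genes. A promoter-class peak was assigned to 0 of them in the induced and to 7 in the control list, beside 6.92% and 3.99% of all. Of those 7, 6 were the miR-17/92 genes that share the 17-tag control peak. The other was Mir21a, whose control promoter peak held 20 tags at 6.35-fold within Vmp1, and whose induced peak, 5498 bp after the start, held 11 tags at 7.52-fold. Mir210, a target of the hypoxia factors, had an induced peak of 11 tags at 9.65-fold, 2321 bp before its start, and no control peak. Mir184 had an induced peak of 11 tags at 8.59-fold and Mir150 one of 15 tags at 8.77-fold. Mir221 and Mir222 had 1 induced peak each, of 10 tags, at 8.59- and 7.52-fold. Mir15a and Mir146 had control peaks alone, of 16 tags, at 4.89- and 5.86-fold. Among those with no peak in either list were Mir126a, Mir132, Mir31, Mir155 and Mir296.

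The 20 microRNAs known from endoplasmic reticulum stress and the unfolded protein response had peaks at 6 genes in the induced list and at 3 in the control list (30% and 15%), beside 33.3% and 23.7% of all RefSeq microRNA genes. Mir30c-1, inside Nfyc, had a promoter-class induced peak of 12 tags at 7.02-fold, 966 bp before its start. Mir30c-2 had 2 induced peaks, of 12 tags at 10.74-fold and 10 tags at 6.44-fold. Mir346 had 4 induced peaks of 6.14- to 9.66-fold within Grid1, a glutamate receptor gene, all 135319 bp or more after its start. The other genes with a peak were Mir17, Mir125b-1 and Mir125b-2. Among those with none in either list were Mir708, Mir34a, Mir214, Mir322, Mir503, Mir106b, Mir25 and Mir93. The highest fold on the list was 12.89 in the induced list, at the Mir125b-1 peak 140832 bp after its start, and 6.84 in the control list, also at Mir125b-1.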

How the data were processed

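Each of the 2 peak lists came from 1 transketolase ChIP library set against its matching input. Reads were aligned with Bowtie2 2.2.7 to mm10 (GRCm38), per the submitters' processing notes, and the name of the program that called peaks is not given in the sources used here. Per peak, the authors deposited a whole-number count of ChIP tags, not normalized, a fold enrichment as a ratio to a background, a score of 10 times the −log10 p-value, and a false discovery rate in percent, per the file headers. All folds, scores and rates here are the authors'. Library depth was unknown, since the deposited files gave tags within peaks only.

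Members were counted once per position and list. All 418 induced and 298 control microRNA transcripts were matched by accession to the RefSeq gene table of GRCm38.p6, which gave 1228 microRNA genes, 10429 pseudogenes and coding gene spans, without exons. Overlap was at least 1 bp. Intervals are 95% Wilson intervals for counting error. Mature and hairpin sequences came from RefSeq, for 432 of 527 symbols, with none read from chromosome 18. Named microRNAs were drawn from those of every peak of at least 20-fold and the 5 of highest fold in each class and list. They were also drawn from those under a peak, at shared positions, with promoter peaks in both lists, or on the fixed lists. Not every such microRNA is named: Mir101b and Mir6938, each with an induced peak of 50.47-fold, are among those left out. Strong peaks are described in part by their host genes. Others, such as Mir6238, Mir6350, Mir6370, Mir592, Mir148a and the host transcripts, were named after their values were seen. The members and lists were chosen with earlier results of these data known. Overlap counting was tested on simulated data. Software was pandas 2.3.3, scipy 1.17.1, numpy 2.4.6 and matplotlib 3.10.9 under Python 3.11.15. Alternatives were a stricter p-value, no strong peaks, peaks with microRNA lines alone, a 1 kb promoter, a 50% overlap and, chosen after seeing the data, RefSeq-placed start sites alone.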

Additional observations from a re-analysis of the deposited data

How the results depend on the processing

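With peaks of −log10 p 10 or more alone, members fell to 61 in the induced list and 5 in the control list, their promoter share became 29.5% and 20%, and promoter genes numbered 16 and 2. Under that filter the median fold of induced members was 26.84, pseudogenes lay under 25 induced members and 1 control member, microRNA genes under 10 and 1, 1 member of each list overlapped the other list, and 1 symbol had a peak in both. Without peaks of 20-fold or more, 18 induced members lay over a pseudogene and 12 over a microRNA gene of their own. With the promoter set at 1 kb, the promoter share was 6.81% in the induced and 4.21% in the control list, and control promoter genes numbered 29. Shares of the other peaks were not taken at any of these settings. The values here therefore do not show whether members and other peaks still differed. The control promoter share of 20% under the stricter p-value rests on 5 peaks. With an overlap of at least 50% of both peaks, 7 induced and 8 control members met the other list. The stricter p-value and the removal of strong peaks keep fewer peaks. The 1 kb promoter and the 50% overlap keep the same peaks under a narrower definition. The cause of the changed shares and median was not tested. Over these settings and that of peaks with microRNA lines alone, the remaining 32 values stayed within 1.5 times the reported value, or within its interval for shares. So did all 15 values with start sites at the RefSeq gene alone, an alternative chosen after seeing the data. No paired analysis was possible because neither group had a second ChIP library, and no replicate could be left out. The tag floor of 10 in the induced and 14 in the control list limits what could be listed, and an unlisted microRNA is not shown to lack transketolase. Total depth is unknown, so neither counts nor folds of the lists share a scale.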
